A study of Homo sapiens with 6 samples.

Results

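The 10 genes described here restrain SMAD signaling: the inhibitory SMADs SMAD6 and SMAD7, the corepressors SKI and SKIL, the membrane proteins PMEPA1 and BAMBI, the ubiquitin ligases SMURF1 and SMURF2, and the homeodomain repressors TGIF1 and TGIF2. They were chosen by name, as 10 of 24462 gene symbols in the files, after earlier results of the same comparison had been seen. The levels of PMEPA1 and SMAD7 in both groups were among those results. The differences of these genes between the groups are therefore a description, and whether a gene was called states only where it fell in the fit over all genes. All 10 had a single row in the files, and all 10 were among the 16314 genes that passed the filter on low counts.

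RNA was sequenced from PC3 cells, a human prostate cancer line that was established from a metastasis in bone. Of 6 cultures, 3 received a non-targeting siRNA (si-Control) and 3 an siRNA against CITED2 (si-CITED2), each at 80 nM for 72 h, in the same medium with serum. The comparison asks how the expression pattern changed with CITED2 knockdown. The study's methods list 1 siRNA sequence for CITED2, and the data cover 1 cell line. The labels do not say that the replicates came from separate platings, although the study describes independent experiments, so the spread between replicates may be partly technical.

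The libraries held 19508925 to 28936374 counts, and 3 counts, the smallest level taken as detectable, corresponded to 0.104 to 0.154 CPM (counts scaled to the depth of the library). The CITED2 mRNA itself was not lower in the libraries labelled si-CITED2. It was at 859, 892 and 773 normalized counts in si-Control and at 1084, 921 and 984 in si-CITED2. Normalized counts are read counts scaled to a common effective library size. All 3 of these lay above all si-Control values (log2 fold change 0.24, adjusted p = 0.0363, edgeR). The call was lost without si-Control replicate 1 (adjusted p = 0.0536, edgeR), si-Control replicate 3 (0.141), si-CITED2 replicate 1 (0.154) or si-CITED2 replicate 3 (0.0846). The mRNA thus goes against the label si-CITED2, and each direction given for these libraries follows the label alone. The study checked the knockdown on the protein, which was not analysed here. The epithelial markers EPCAM, KRT8, KRT18, KRT19 and CDH1 summed to 1819 to 1909 CPM in si-Control and 1936 to 2119 CPM in the libraries labelled si-CITED2, where KRT8 and KRT18 were called higher and EPCAM and CDH1 lower. The part of these shifts in the results below was not tested. The 4 fibroblast and 3 endothelial markers summed to at most 0.554 and 0.827 CPM in any library. The 4 leukocyte markers summed to 121 to 146 CPM, nearly all of it CD68, while PTPRC and CD3E did not exceed 2 counts in any library. In bulk RNA, fewer cells with a transcript and less of it per cell cannot be told apart.

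Ligands of the TGF-β family bind receptor kinases that phosphorylate SMAD proteins, and these enter the nucleus with SMAD4 to regulate genes. Several of the regulated genes encode inhibitors of the same pathway, which closes a negative feedback loop. SMAD7 and SMAD6 block the activated receptors, with SMAD6 acting mainly on the BMP arm. PMEPA1 sequesters SMAD2 and SMAD3 at membranes, BAMBI is a pseudoreceptor without a kinase domain, and SKI, SKIL and the TGIFs bring corepressors to SMAD complexes on DNA. SMURF1 and SMURF2 mark SMADs and receptors for degradation, and SMAD7 guides them to the receptor.

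SMADs bind short DNA motifs, and the start regions of these genes were searched for them. Stretches are shown for the 6 genes called higher in the libraries labelled si-CITED2. Whether the motifs have a part in the differences was not tested. The sequences are RefSeq promoter windows on GRCh38.p14, which run from 250 bases before to 50 bases after a gene's start. A window was found for 9 of the 10 genes, 21 windows in all, and none for SKI. Capitals mark the SMAD palindrome GTCTAGAC in SMAD6 and the SMAD-binding motif CAGAC, or its complement GTCTG, in the others. The 30-base stretches lie at chr15:66702213-66702242 (SMAD6, plus strand), chr18:48951166-48951195 and chr18:48951077-48951106 (SMAD7, minus strand), chr20:57710676-57710705 (PMEPA1, minus strand), chr3:170357595-170357624 (SKIL, plus strand), chr17:64662292-64662321 (SMURF2, minus strand) and chr7:99144296-99144325 (SMURF1, minus strand). BAMBI, which was not called, is also shown, from chr10:28677319-28677348 (plus strand). TGIF1, which was not called either, holds CAGAC too and is not shown, so the motif does not separate called genes from others.
SMAD6: gccgccaaagtGTCTAGACtggcatatgat
SMAD7, farther from the start: agccggacgccccCAGACctctgaggttcg
SMAD7, nearer to the start: cttcttattttgcCAGACgtctcatgcggg
PMEPA1: gccccttgggcagCAGACaatgggtgtgga
SKIL: agacggcggcggcGTCTGcgggaagctgtg
SMURF2: gtcccgggtccctCAGACaagagggcgggt
SMURF1: ccgggctcggggcCAGACcctcccacccac
BAMBI: cagccgggcgcccCAGACgccggcgccgct

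The palindrome GTCTAGAC was in 1 of the 21 windows (4.76%), against 0.202% of all 35116 windows. That window was of SMAD6, where the palindrome began 12 bases before the start. Nothing is read from a single match. The marked motifs lie before the start, except in SMURF2, where the motif spans it. CAGAC on either strand was in 14 of the 21 windows (66.7%), against 45.3% of all windows. Those 14 windows came from 7 of the 9 genes, and the share over all genes, rather than windows, was not computed. The SMAD6 and TGIF2 windows did not hold CAGAC. The BMP-type motif GGCGCC was in 5 of the 21 windows (23.8%), from BAMBI, PMEPA1, SKIL and TGIF2, and 19.2% of all windows held it. The TGIF-type motif TGTCA was in 10 of the 21 windows (47.6%), against 38.9% of all windows. Those 10 windows came from 6 of the 9 genes, BAMBI, PMEPA1, SMAD6, SMAD7, TGIF1 and TGIF2. The AP-1 motif TGACTCA was in none of the 21 windows and in 4.95% of all windows. Motifs were searched on both strands and may overlap each other. TGIF1 has 7 windows, PMEPA1 4 and SMAD7 3, some of which overlap, so these genes had more chances to hold a motif. A match is a description of the letters and not a bound site.

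Of the 10 genes, 6 were called higher in the libraries labelled si-CITED2 and 0 were called lower. A gene was called when its adjusted p fell under 0.05 in the quasi-likelihood fit of edgeR across all genes. In the whole fit, 9.36% of genes were called higher and 8.09% lower. At an unadjusted p under 0.05, 0 of the 10 were lower, and DESeq2 also called 0 lower. Both follow from log2 fold changes above 0 for all 10 in either fit, and add nothing to them. The 6 were SMAD6, SMAD7, SKIL, PMEPA1, SMURF1 and SMURF2. The fold change limit of the study's heat map, an unadjusted p under 0.05 with a fold over 2, was passed by 4 of them, PMEPA1, SMAD7, SKIL and SMURF2. Over all genes 1.59% passed that limit higher and 0.319% lower. The median log2 fold change was 0.47 over the 10 genes and -0.0014 over all genes tested. In 7 of the 10, every library labelled si-CITED2 lay above every si-Control library, as did 16.4% of all genes tested. These shares follow in part from how the genes were chosen, and nothing is read from them.

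**Figure D1:**
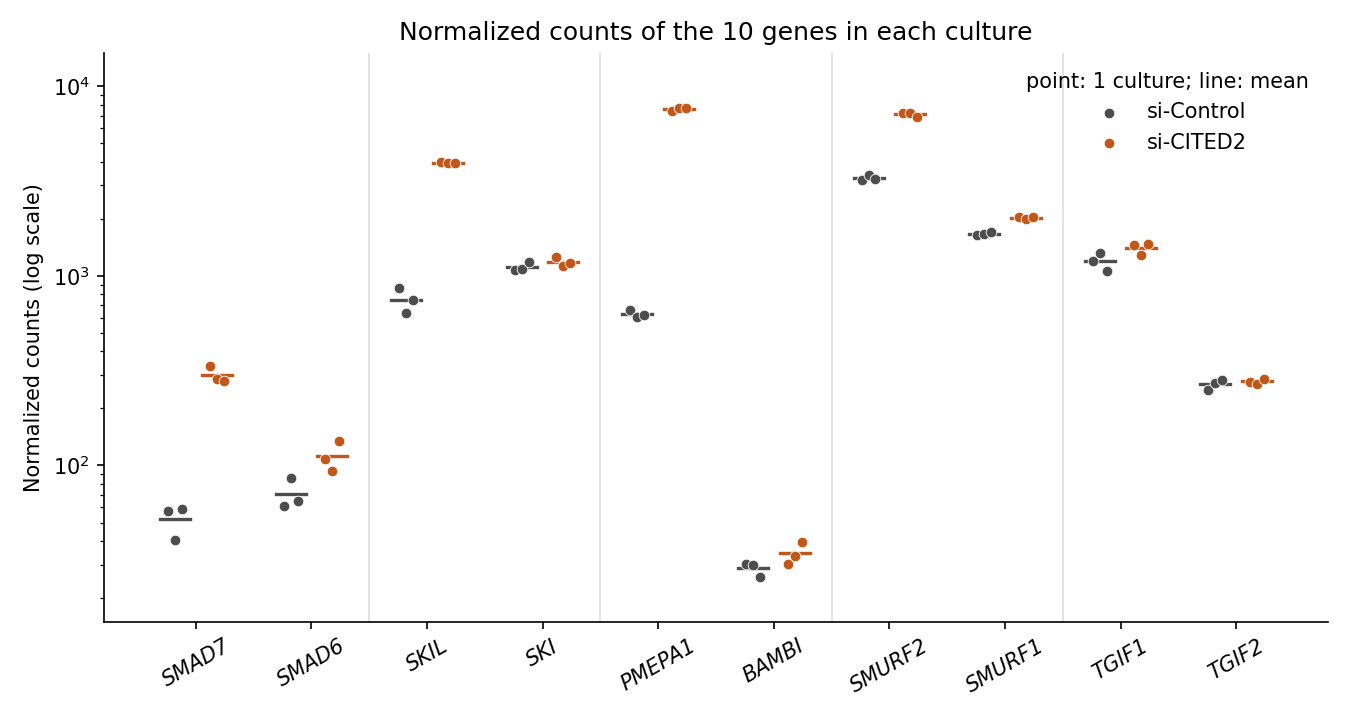
Normalized counts (log scale) of the 10 genes in each of the 6 libraries, with si-Control in grey and the libraries labelled si-CITED2 in orange; each point is 1 culture and each line the mean of 3. SMAD7, SKIL, PMEPA1 and SMURF2 stand well apart between the groups, while SKI, TGIF1 and TGIF2 overlap.

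SMAD7, the inhibitory SMAD that acts on both arms of the pathway, was at 57.8, 40.3 and 58.8 normalized counts in si-Control. In the libraries labelled si-CITED2 it was at 333, 285 and 279. The lowest of these was more than 4 times the highest si-Control value, and the groups did not overlap. The log2 fold change was 2.53 (standard error 0.157), a 5.77-fold higher level, and SMAD7 ranked 37 from the top among the 16314 genes. SMAD6, the inhibitory SMAD of the BMP arm, was at 61.3, 85.3 and 64.7 normalized counts in si-Control and at 108, 93.6 and 135 in the libraries labelled si-CITED2. The groups did not overlap, but the highest si-Control and the lowest si-CITED2 library were close. For SMAD6 the log2 fold change was 0.66 (standard error 0.186). SMAD6 was called in 3 of the 6 fits that left out 1 library. It was not called without si-Control replicate 1 (log2 fold change 0.56), without si-Control replicate 3 (0.6) or without si-CITED2 replicate 3 (0.5).

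Both inhibitory SMADs had few counts. In si-Control the coefficient of variation was 20% for SMAD7 and 18.4% for SMAD6, against 13.5% and 11.4% from counting error alone. In the libraries labelled si-CITED2 it was 9.82% for SMAD7 and 18.6% for SMAD6, against 6.02% and 9.84%. The spread was above counting error in all 4 cases, but each rests on 3 cultures, and whether it exceeds counting error was not tested for these genes. Within each library, which needs no normalization, the SMAD7 count was 0.942, 0.472 and 0.909 times the SMAD6 count in si-Control. In the libraries labelled si-CITED2 it was 3.08, 3.04 and 2.07 times the SMAD6 count. The ratio thus lay below 1 in every si-Control library and above 2 in every library labelled si-CITED2.

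SKIL, which encodes the corepressor SnoN and is a direct target of SMAD signaling in many cells, was at 862, 640 and 742 normalized counts in si-Control. In the libraries labelled si-CITED2 it was at 3997, 3934 and 3945. The si-Control cultures differed from each other more than the other 3 did, with a coefficient of variation of 14.9% against 0.857%. Counting error alone gives 3.54% and 1.65%, so the 0.857% lies below its counting error. Each of these coefficients rests on 3 cultures. The log2 fold change was 2.41 (standard error 0.0794), a 5.3-fold higher level. SKI, the founding member of the family, was at 1069, 1090 and 1180 normalized counts in si-Control and at 1264, 1133 and 1167 in the libraries labelled si-CITED2. These values overlapped, the log2 fold change was 0.09 (standard error 0.0641), and SKI was not called. The SKIL count was 0.806, 0.587 and 0.629 times the SKI count in si-Control and 3.16, 3.47 and 3.38 times in the libraries labelled si-CITED2. SKIL thus had fewer reads than SKI in every si-Control library and more in every library labelled si-CITED2.

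PMEPA1, the membrane protein that holds SMAD2 and SMAD3 away from the receptor, had the largest difference of the 10. It was at 658, 604 and 624 normalized counts in si-Control and at 7447, 7723 and 7646 in the libraries labelled si-CITED2. The values within each group lay close together, with coefficients of variation of 4.34% and 1.87%. The log2 fold change was 3.6 (standard error 0.0557), a 12.1-fold higher level, which ranked 14 from the top of all genes tested. BAMBI, the pseudoreceptor, was at 30.2, 29.8 and 25.9 normalized counts in si-Control and at 30.4, 33.4 and 39.4 in the libraries labelled si-CITED2. The groups just failed to overlap, but with 22 to 37 counts per library the counting error alone was about 18% and BAMBI was not called. Its log2 fold change was 0.26 (standard error 0.25), and a difference of this size was not detectable at this depth.

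PMEPA1 overlaps NKILA, a long non-coding RNA on the opposite strand, with 343 shared exon bases in GENCODE 29. NKILA was at 56.9, 59.6 and 44.7 normalized counts in si-Control and at 352, 396 and 393 in the libraries labelled si-CITED2. Its log2 fold change was 2.8 (adjusted p = 1.69e-10, edgeR). Whether reads were counted by strand is not given in the sources used here, so reads of the overlap cannot be assigned to either gene. NKILA came to 8.55% of the PMEPA1 level in si-Control and 5% in the libraries labelled si-CITED2, both in normalized counts.

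SMURF2, a HECT-type ubiquitin ligase that SMAD7 brings to the receptor, was at 3190, 3407 and 3246 normalized counts in si-Control. In the libraries labelled si-CITED2 it was at 7235, 7247 and 6925. The groups were far apart relative to their spread, with coefficients of variation of 3.44% and 2.56%. On the log2 scale SMURF2 was higher by 1.12 (standard error 0.0488), a 2.17-fold higher level. SMURF1, its close relative, was at 1635, 1665 and 1708 normalized counts in si-Control and at 2046, 2000 and 2037 in the libraries labelled si-CITED2. The spread within each group was below the counting error, and the groups did not overlap. SMURF1 had a log2 fold change of 0.28 (standard error 0.0514), the smallest of the 6 called differences. The SMURF2 count was 1.95, 2.05 and 1.9 times the SMURF1 count in si-Control and 3.54, 3.62 and 3.4 times in the libraries labelled si-CITED2. The SMURF genes share some exon bases with genes on the opposite strand, SMURF1 with TRRAP (735 bases) and SMURF2 with CEP95 (167 bases). Neither neighbor was called, with log2 fold changes of -0.11 for TRRAP and -0.15 for CEP95. TRRAP came to 226% of the SMURF1 level in si-Control and 173% in the libraries labelled si-CITED2. CEP95 came to 34.2% and 14.2% of the SMURF2 level. As the use of strand is not given, reads of these overlaps cannot be assigned to either gene, and their part in the SMURF differences was not tested. TRRAP was called lower without si-Control replicate 1 (log2 fold change -0.18, adjusted p = 0.0163, edgeR).

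TGIF1, a homeodomain protein that recruits histone deacetylases to SMAD2 and SMAD3, was at 1192, 1326 and 1059 normalized counts in si-Control and at 1458, 1290 and 1468 in the libraries labelled si-CITED2. One library of each group crossed into the range of the other. The log2 fold change was 0.23 (standard error 0.0774), and TGIF1 lay just outside the call. It was called without si-Control replicate 2 (log2 fold change 0.32) and without si-CITED2 replicate 2 (0.29). TGIF2, which acts in a similar way, was at 251, 273 and 284 normalized counts in si-Control and at 277, 270 and 286 in the libraries labelled si-CITED2. The groups overlapped, with si-Control replicate 1 below every library labelled si-CITED2, and the log2 fold change was 0.05 (standard error 0.0992). The read-through row TGIF2-C20orf24 held at most 9 counts in a library, which came to 2.23% of the TGIF2 level in si-Control and 2.71% in the libraries labelled si-CITED2. The count of TGIF1 was 4.76, 4.86 and 3.73 times that of TGIF2 in si-Control and 5.27, 4.77 and 5.13 times in the libraries labelled si-CITED2, with overlap between the groups.

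**Figure D2:**
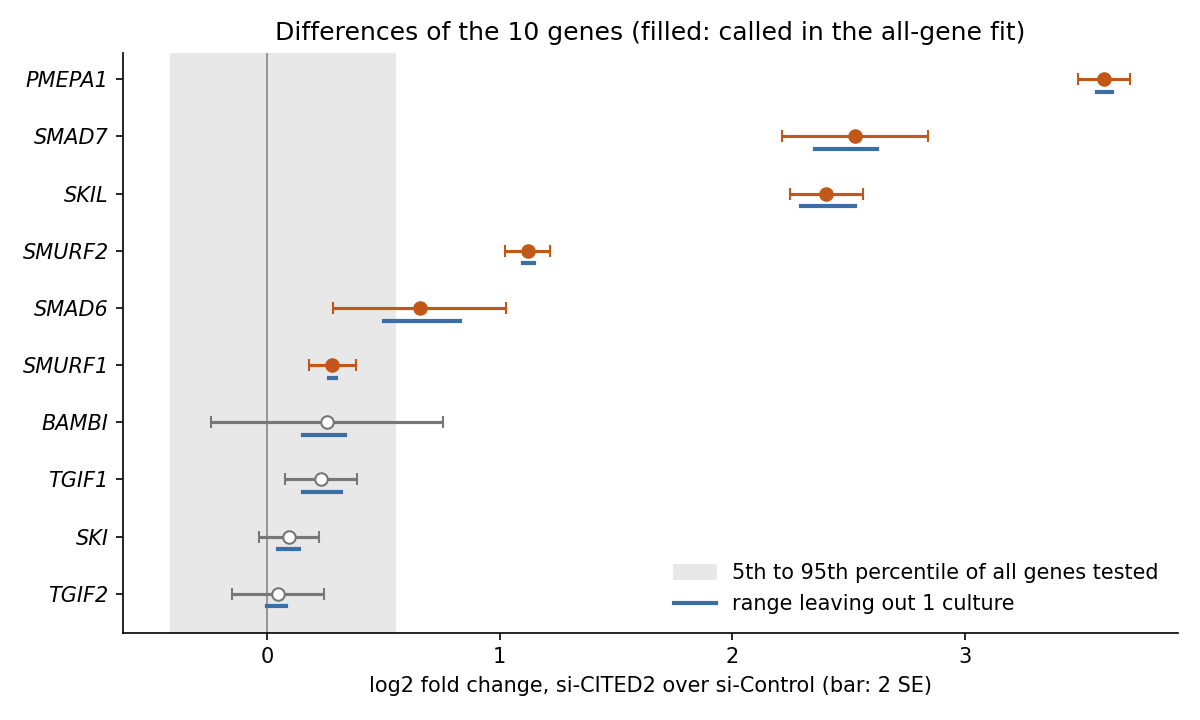
Log2 fold changes of the 10 genes in the libraries labelled si-CITED2 over si-Control; points with bars of 2 standard errors are filled where the gene was called, blue lines give the range when 1 culture was left out, and the grey band spans the 5th to 95th percentile of all genes tested (-0.41 to 0.55). PMEPA1, SMAD7, SKIL, SMURF2 and SMAD6 lie above the band, and the other 5 lie inside it.

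In 4 of the 5 pairs of genes, 1 partner differed more than the other, and the count ratio did not overlap between the groups. These pairs were SMAD7 with SMAD6, SKIL with SKI, PMEPA1 with BAMBI, and SMURF2 with SMURF1. The mean ratio in the libraries labelled si-CITED2 was 3.53 times that in si-Control for SMAD7 to SMAD6, 4.95 times for SKIL to SKI, 10.1 times for PMEPA1 to BAMBI and 1.79 times for SMURF2 to SMURF1. PMEPA1 and BAMBI are paired only by their place at the membrane and are not relatives. For TGIF1 to TGIF2 it was 1.14 times. In each pair the gene with the larger difference stands first. The ratios restate the differences of the single genes, which were chosen with earlier results known. The share over all pairs of genes was not computed. Among single genes tested, 16.4% lay apart upward and 16.1% downward, and nothing is read from the count of pairs.

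**Figure D3:**
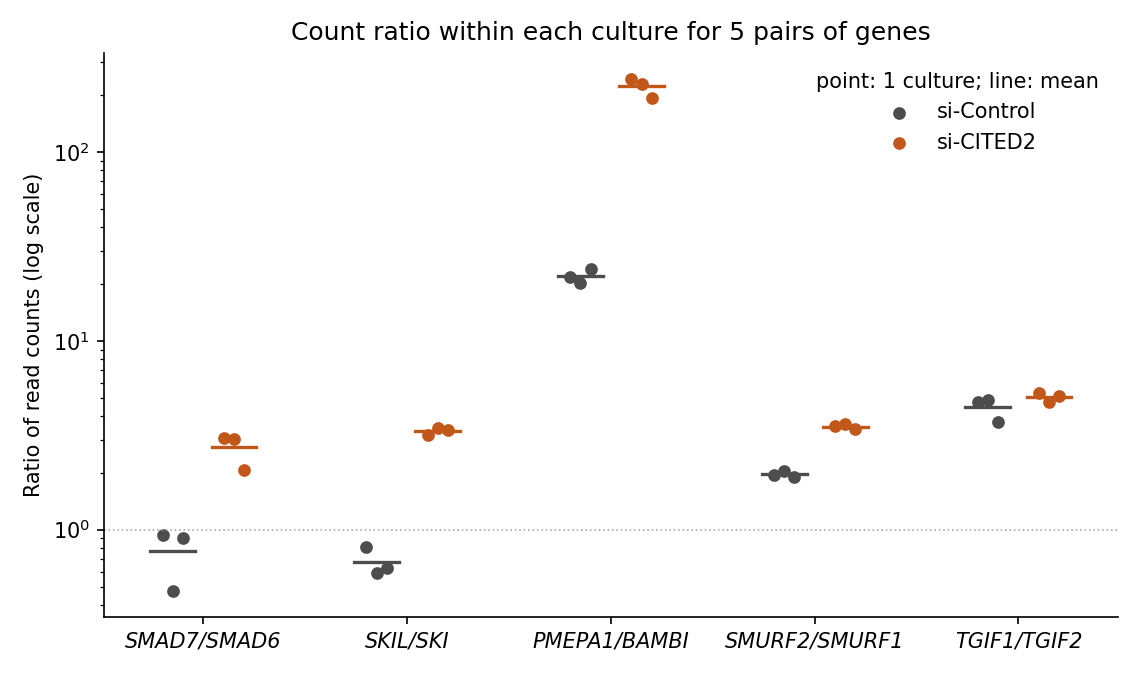
Ratio of read counts (log scale) within each culture for 5 pairs of genes, si-Control in grey and the libraries labelled si-CITED2 in orange; each point is 1 culture and each line a mean. The ratios of the first 4 pairs do not overlap between the groups, and TGIF1 to TGIF2 does.

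Levels were compared between genes as normalized counts per kb of the longest coding or nonsense-mediated decay transcript in GENCODE 29. In si-Control the order was SMURF2 (557 ± 19.1 per kb, SD, n = 3), TGIF1 (393 ± 44.1), SMURF1 (291 ± 6.41), SKI (198 ± 10.5), PMEPA1 (130 ± 5.62), SKIL (104 ± 15.5), TGIF2 (78.4 ± 4.9), SMAD6 (18.4 ± 3.39), BAMBI (15.3 ± 1.27) and SMAD7 (11.8 ± 2.36). Among neighbors in this order, the values of SMAD6 and BAMBI overlapped and those of the others did not. In the libraries labelled si-CITED2, PMEPA1 (1570 ± 29.4 per kb) and SMURF2 (1211 ± 31) came first, followed by SKIL (551 ± 4.72), TGIF1 (464 ± 33.1), SMURF1 (353 ± 4.26) and SKI (212 ± 12.1). TGIF2 (80.9 ± 2.28), SMAD7 (67.5 ± 6.63), SMAD6 (29.2 ± 5.44) and BAMBI (18.3 ± 2.46) followed, and no neighbors overlapped. PMEPA1 thus stood at place 5 in si-Control and at place 1 in the libraries labelled si-CITED2, while SMAD7 stood at place 10 and place 8. TGIF1 depends on the transcript used, since it fell from place 2 to place 4 in si-Control, and from place 4 to place 6 in the other group, when all of its exons were counted as length.

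The levels of the 10 genes summed to 1797 ± 38.5 normalized counts per kb (SD, n = 3) in si-Control and to 4557 ± 26 in the libraries labelled si-CITED2, 2.54 times as much. PMEPA1 made up 7.22% ± 0.422 of this sum in si-Control and 34.5% ± 0.839 in the libraries labelled si-CITED2. SKIL went from 5.81% ± 0.944 to 12.1% ± 0.0389, and SMAD7 from 0.659% ± 0.143 to 1.48% ± 0.138. The share of SMURF2 was 31% ± 0.563 and 26.6% ± 0.682, although its own level was higher in the libraries labelled si-CITED2.

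**Figure D4:**
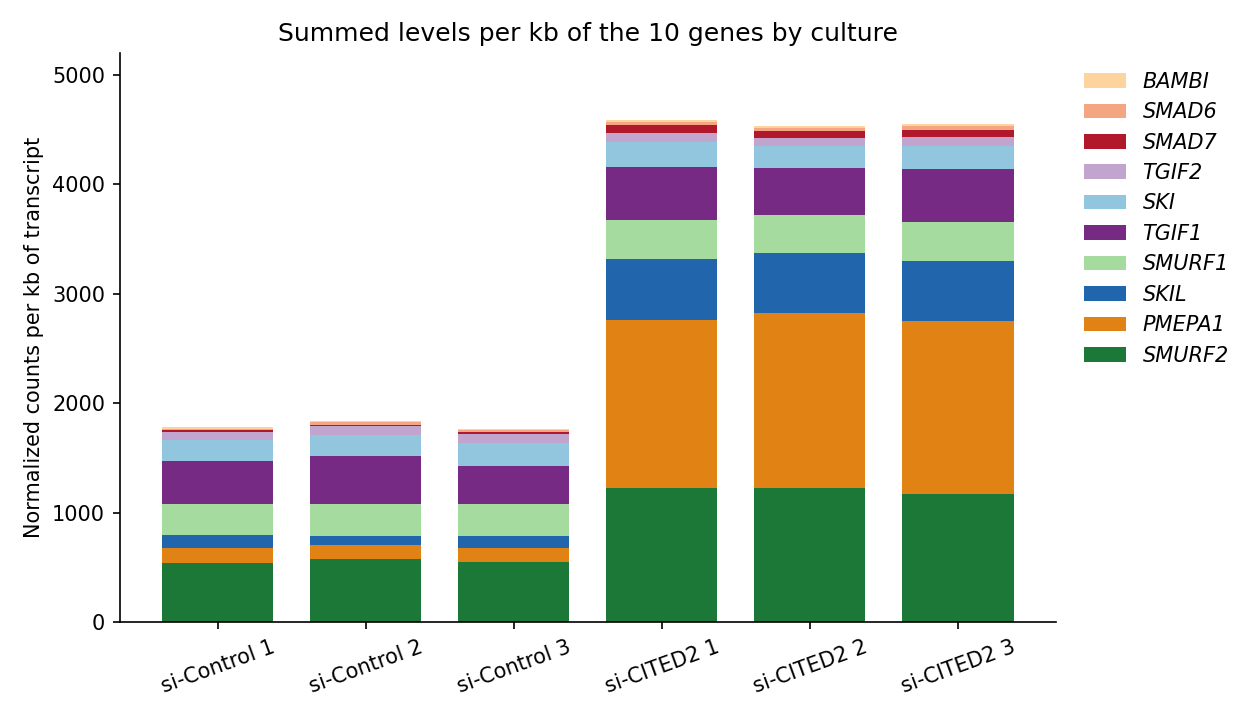
Summed levels of the 10 genes in each culture, as normalized counts per kb of transcript, with each gene as a colored part of the bar. The bars reach 1767 to 1841 in si-Control and 4533 to 4585 in the libraries labelled si-CITED2, and the PMEPA1 part differs most. The TGIF1 part rests on the length of its longest transcript and would be smaller with all of its exons counted.

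Among the si-Control cultures, replicate 2 had the lowest level of SMAD7, of SKIL and of PMEPA1, while it had the highest level of SMAD6, SMURF2 and TGIF1. With 3 cultures this is a description of single libraries. Of all other genes, THBS1, ARHGEF18 and TPM1 had the patterns most like that of PMEPA1, by Pearson's r of log2 CPM over the 6 libraries (0.9998, 0.9996 and 0.9996). The 6 points fall into 2 groups, so r mainly reflects the difference between them. THBS1 (thrombospondin 1) was at 2502, 2480 and 2525 normalized counts in si-Control and at 5580, 5721 and 5641 in the libraries labelled si-CITED2. The log2 fold changes were 1.17 for THBS1, 1.13 for ARHGEF18 and 1.71 for TPM1.

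The rest of the pathway was examined with lists ordered by role, 92 genes in the files, of which 79 were tested. Of these, 21 were higher and 6 lower in the libraries labelled si-CITED2, and 52 did not pass, beside 9.36% of all genes called higher and 8.09% called lower. The count of lower genes was close to the share over all genes. The median log2 fold change was 0.07. Below, rose and fell mean higher and lower in the libraries labelled si-CITED2 than in si-Control, which are separate cultures. LDRAD4, a relative of PMEPA1, was not analysed here.

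The counts by role given here and in the next paragraph stand beside 9.36% of all genes called higher and 8.09% called lower. Of 6 signal-transducing SMADs only SMAD3, which carries the TGF-β and activin signal, rose, from 3968 ± 343 to 5022 ± 114 normalized counts (SD, n = 3; log2 fold change 0.34, adjusted p = 5.75e-04, edgeR). SMAD2 (log2 fold change -0.12, adjusted p = 0.128, edgeR) and SMAD4 (0.05, adjusted p = 0.64, edgeR) were not called. Among 12 receptors tested, the type I receptor TGFBR1 (log2 fold change 0.37, adjusted p = 2.94e-04, edgeR) and the BMP type II receptor BMPR2 (0.66, adjusted p = 2.52e-06, edgeR) rose. The type II receptor TGFBR2 fell by 0.24 on the log2 scale (adjusted p = 0.00575, edgeR), from 1889 ± 83.2 to 1597 ± 56.4 normalized counts. Of 10 ligands and extracellular antagonists tested, 2 rose, the ligand TGFB1 (log2 fold change 0.29) and the BMP antagonist NOG (1.04, from 43.7 ± 2.1 to 89.5 ± 27.5 normalized counts). INHBA, INHA, INHBB, NODAL, LEFTY1, LEFTY2, BMP2 and GREM1 were too low to be tested.

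Of 5 other inhibitors tested at the receptor, 2 rose (VASN and FKBP1A), 1 fell (PPP1R15A) and 2 did not pass. VASN, a membrane protein that binds TGF-β, rose from 72.5 ± 4.21 to 351 ± 56.1 normalized counts (SD, n = 3; log2 fold change 2.27, adjusted p = 5.62e-09, edgeR). PPP1R15A, which with SMAD7 directs a phosphatase to the type I receptor, fell by 0.35 on the log2 scale (adjusted p = 6.62e-04, edgeR). FKBP1A, which keeps type I receptors inactive, had a log2 fold change of 0.16 and was called in 7 of 13 alternative fits. It lost the call without replicate 2 or 3 of either group, with adjusted p of 0.0747 to 0.155 in edgeR. Of 14 other ubiquitin ligases and deubiquitinases, which include both restraining and promoting enzymes of the pathway, 3 rose (CYLD, WWP1 and USP9X), 3 fell (NEDD4L, WWP2 and STUB1) and 8 did not pass. USP9X (log2 fold change 0.16) was called in 6 of 13 alternative fits, losing the call without any 1 library but si-Control replicate 3. STUB1 (-0.18) was called in 9, losing it without replicate 2 or 3 of either group, and NEDD4L (-0.21) lost it without si-CITED2 replicate 3. Their log2 fold changes lay between -0.26 (WWP2) and 0.37 (CYLD). That of SMURF2 (1.12) lay above this range, and that of SMURF1 (0.28) lay inside it. Of 6 SMAD phosphatases and export factors, CTDSP2 rose (log2 fold change 0.3).

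Targets of each arm are given beside the share over all genes, 9.36% called higher and 8.09% called lower. Of 12 tested targets of the TGF-β and activin arm, 8 rose, with a median log2 fold change of 1.42 over the 12. The scaffold gene NEDD9 rose with a log2 fold change of 3.5, and the matrix gene TGFBI with 2.7. This list holds genes whose values had been seen before, so its count is not independent evidence of a direction. Of 5 tested targets of the BMP arm, ID3 rose (log2 fold change 0.49, adjusted p = 9.74e-04, edgeR), ID1 fell by 0.7 on the log2 scale (adjusted p = 5.37e-05, edgeR), and 3 did not pass. ID1 and ID3 encode related inhibitors of helix-loop-helix transcription factors. The difference between the lists was not tested.

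**Figure D5:**
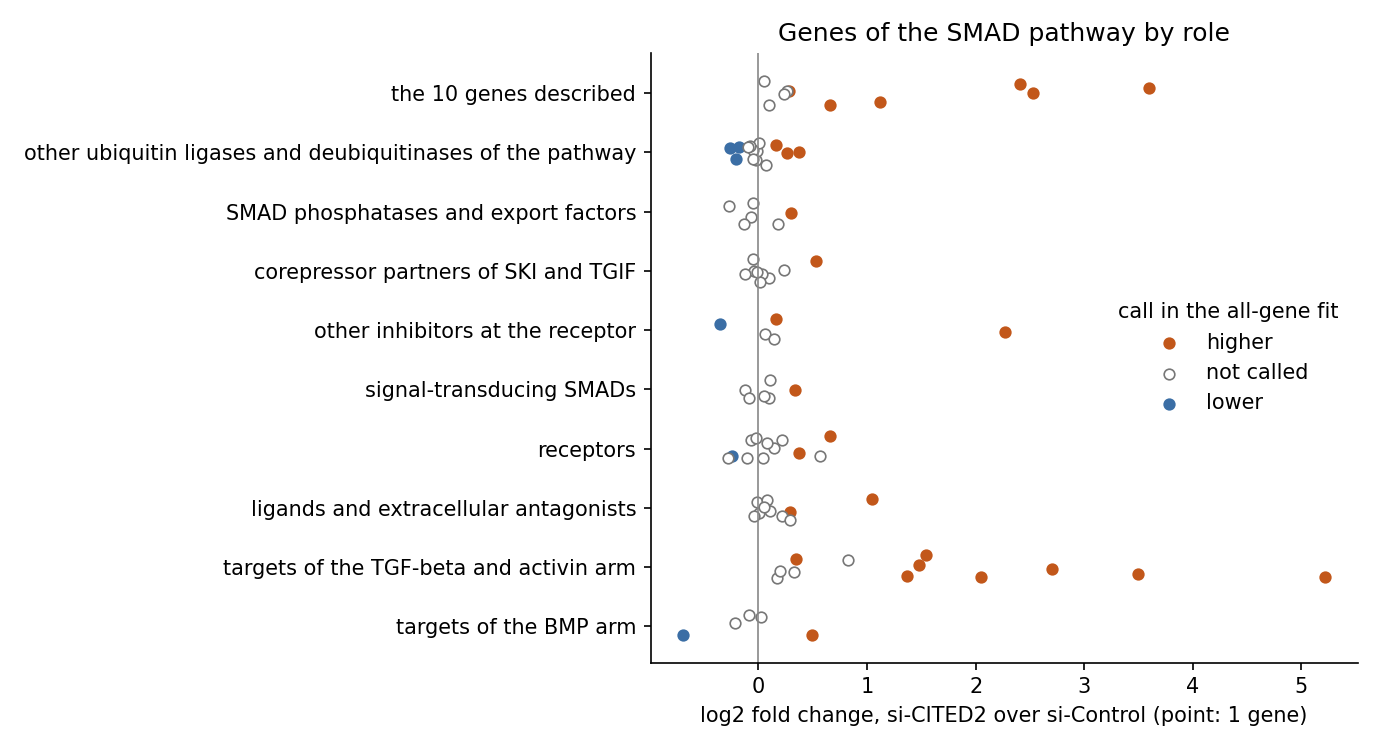
Log2 fold changes in the libraries labelled si-CITED2 over si-Control for the 10 genes described and for the 79 tested genes of the pathway lists; each point is 1 gene, colored by its call in the fit over all genes. Points beyond 1 are the 4 feedback genes PMEPA1, SMAD7, SKIL and SMURF2, VASN, NOG and 7 targets of the TGF-β and activin arm.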

How the data were processed

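The authors deposited raw read counts per gene symbol for each of the 6 cultures, without normalization. The submitters' processing notes name TopHat, edgeR and hg19. The counting program, the annotation and any use of strand are not given in the sources used here. Libraries were made from total RNA with a SMARTer mRNA kit. For 286 repeated symbols, none of them among the 10 genes, only the row of highest total count entered. The model was fitted with edgeR 4.0.16 under R 4.3.3, using filterByExpr, TMM, and the quasi-likelihood test without a block, with Benjamini-Hochberg adjustment over all 16314 genes. The standard error came from the F statistic. A prior count of 2 entered the log2 CPM values. The script was tested on simulated data. Alternatives included DESeq2 1.42.0, other scalings and filters, a replicate block and leaving out each library. Every replicate pair differed beyond sampling noise (chi-square over its degrees of freedom, 2.89 or more). The genes and lists were chosen with earlier results of these data known. Named were all 10 genes, CITED2, SMAD2, SMAD3, SMAD4, TGFBR1, TGFBR2, the 3 largest called changes per pathway list and the 3 genes most like PMEPA1. USP9X, NEDD4L, STUB1, NKILA, TRRAP, CEP95 and genes too low to test were named after their values were seen. Lengths, overlaps and promoters are on GRCh38, not the build of the files. Protein sequences were not used here. A few genes that the naming rule selects are not reported here. Floors cover counting error only, while the standard errors include the spread between cultures.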

Additional observations from a re-analysis of the deposited data

How the results depend on the processing

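Of the 10 genes, PMEPA1, SMAD7, SKIL, SMURF2 and SMURF1 were called in all 13 alternative fits, and SKI, BAMBI and TGIF2 in none of them. SMAD6 was called in 10 and TGIF1 in 6 of the 13. Outside the leave-one-out fits, TGIF1 was called with DESeq2, with RLE size factors and with either other filter. The number called higher ranged from 5 to 7 when 1 library was left out. Without si-Control replicate 1 the log2 fold change of TGIF2 was -0.0017, against up to 0.083 without another library, and the cause was not tested. CITED2 (log2 fold change 0.24) was called in 8 of the 13 fits, with values from 0.17 to 0.29. Leaving out 1 library gave 18 to 20 higher and 4 to 6 lower pathway genes. NEDD9 could not be fitted with at least 10 counts in every sample. Under the fold limit of the heat map, 9 of the pathway genes were higher and 0 lower, in place of 21 and 6, because most called changes were smaller than that fold. The replicate numbers did not pair the samples (correlation of deviations from -0.038 to 0.0336), and 2 of the 6 samples correlated best with their own number. With the replicate block, 6 of the 10 genes were called higher and 0 lower, and 19 and 6 of the pathway genes. Among the genes named, the block ended the calls of FKBP1A (adjusted p = 0.0698, edgeR) and USP9X (0.0642) and no other. Low counts limit BAMBI, SMAD6 and SMAD7.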
